A study of Homo sapiens with 2 samples.

Results

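The 10 luminal lineage transcription factor genes GATA3, FOXA1, SPDEF, ELF3, EHF, TFAP2A, TFAP2B, TFAP2C, XBP1 and KLF5 were taken by gene symbol from both deposited transcript tables, 10 of 25240 genes, and transcript values were summed per gene. The shRON library came from T47D cells, a human luminal breast cancer line, transduced with a hairpin against MST1R, the gene of the receptor tyrosine kinase RON. It was set against the shNT library, from T47D cells with a non-targeting hairpin. Both cultures were transduced, kept under puromycin (selection at 5 ug/mL, upkeep at 1 ug/mL) and grown in high-glucose DMEM with 10% serum, so drug and transduction were shared. There was 1 library per group. The sources used here do not say whether the cells were a pool or a clone, and the table of the control library names its cells as wild type although its label gives the hairpin. All differences below therefore describe 2 libraries, without a replicate check and without p-values.

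These factors were grouped as regulators linked to the luminal lineage, that of milk-duct epithelium. The part of each in setting or keeping luminal identity was not tested. Whether a higher value of any of them changes that identity was not tested either. FOXA1 is a forkhead pioneer factor that opens chromatin for the estrogen receptor, and GATA3 is a zinc-finger factor required for luminal differentiation in the mammary gland. SPDEF, ELF3 and EHF are ETS factors whose expression is largely limited to epithelia, the AP-2 proteins TFAP2A, TFAP2B and TFAP2C bind GC-rich palindromes as dimers, KLF5 is a Krüppel-like zinc-finger factor of proliferating epithelium, and XBP1 is a bZIP factor of the unfolded protein response that is abundant in estrogen-receptor-positive tumours.

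Of the 10 genes, 2 are listed as transcript pairs that differ at a site small enough to print, and those sites are shown because the isoform values below turn on them. XBP1 mRNA is cut by the endonuclease IRE1, encoded by ERN1, and loses 26 bases, which shifts the reading frame to that of the active factor. The 2 XBP1 transcripts in the tables differ by 26 bases in length, and the annotation holds a gap of that size on the minus strand of chr22:29192096-29192161 (hg19), inside the coding sequence. In the lines for XBP1, capitals mark the annotated gap, and the spliced line is the same window without it. The first bases of the gap recur just after it, so the exact cut could lie slightly further along and leave the same spliced line. The 2 GATA3 transcripts differ by 3 bases in length, and the annotation holds acceptor sites 3 bases apart at the start of a coding exon on the plus strand of chr10:8105936-8105978 (hg19). Capitals in the GATA3 line mark the 3 bases that belong to the exon in the longer form and to the intron in the shorter.
XBP1 unspliced: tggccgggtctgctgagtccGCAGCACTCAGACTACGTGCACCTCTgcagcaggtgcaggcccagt
XBP1 spliced: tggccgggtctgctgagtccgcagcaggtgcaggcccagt
GATA3 acceptor: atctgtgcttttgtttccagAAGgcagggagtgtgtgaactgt

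The promoters of ELF3 and TFAP2B are shown because both genes were more than 2-fold higher in shRON and the RefSeq promoter window (GRCh38.p14, 250 bases before to 50 bases after the gene's start) lies at the start of the deposited transcript, 25 bases from it for ELF3 and 145 bases for TFAP2B. Of the 10 genes, 9 had an entry in the RefSeq promoter table, and for 6 of them the window lay within 150 bases of a deposited start. Capitals mark letters that matched 1 of 7 short motifs searched on both strands. The ELF3 window is on the plus strand of chr1:202010337-202010636 and the TFAP2B window on the plus strand of chr6:50818621-50818920.
ELF3: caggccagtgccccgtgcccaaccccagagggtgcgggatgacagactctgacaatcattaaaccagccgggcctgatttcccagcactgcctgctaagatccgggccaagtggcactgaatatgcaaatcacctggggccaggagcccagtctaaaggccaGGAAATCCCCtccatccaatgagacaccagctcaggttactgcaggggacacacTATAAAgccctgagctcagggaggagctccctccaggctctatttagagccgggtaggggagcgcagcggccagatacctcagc
TFAP2B: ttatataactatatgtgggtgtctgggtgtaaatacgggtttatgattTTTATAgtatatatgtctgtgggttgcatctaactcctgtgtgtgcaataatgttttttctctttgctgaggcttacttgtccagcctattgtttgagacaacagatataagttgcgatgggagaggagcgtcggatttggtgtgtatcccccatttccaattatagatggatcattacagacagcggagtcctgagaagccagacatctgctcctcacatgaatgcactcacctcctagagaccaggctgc

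Among the 6 windows, the NF-kB motif GGGNNNTTCC was found in 1, that of ELF3, where it begins 88 bases before the start and reads GGAAATCCCC on the printed strand. This motif was in 6.47% of all 27305 promoters of the same length. The TATA motif TATAAA was in 3 of the 6, ELF3 (beginning 34 bases before the start), TFAP2A (30 bases before) and TFAP2B (202 bases before, on the reverse strand), against 12.0% of all promoters. The AP-2 palindrome GCCNNNGGC (23.0% of all promoters), the ETS core CCGGAA (17.6%), the GATA motif AGATAA (10.5%), the forkhead motif TGTTTAC (3.41%) and the interferon-response core GAAANNGAAA (3.65%) were in 0 of the 6. The 2 matches in ELF3 did not overlap. The TFAP2B window was poorer in G and C (43.0%) than the ELF3 window (59.0%), and the median over all promoters was 58.3%.

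The listed transcripts held 2.77 gigabases of assigned sequence in shRON and 2.90 gigabases in shNT, taken as mean read depth times length. Values are FPKM, fragment numbers scaled to transcript length and to the library's total, and a log2 ratio is shRON over shNT after adding 1 to each FPKM value. This addition makes the ratios of low genes smaller than those of their FPKM. A gene was measured if it reached 1 FPKM in at least 1 library (12486 genes), and was called higher or lower at 1.5-fold on this scale. MST1R was at 9.10 FPKM in shRON and 12.1 FPKM in shNT (log2 ratio -0.38), short of the 1.5-fold limit of the call. Its ratio of FPKM was 0.749, and an effect of the hairpin on the target was not tested. Luminal epithelial identity was present in both libraries. KRT8, a keratin of simple epithelia, was at 2634 FPKM in shRON and 3839 FPKM in shNT, and ESR1, the estrogen receptor gene, was at 23.7 and 36.7 FPKM. Of the 25 fibroblast, immune and endothelial markers, 4 reached 1 FPKM in a library. The 10 immune markers summed to 6.84 FPKM in shRON and 1.53 FPKM in shNT, nearly all of it CD68 (5.84 and 1.37 FPKM), while PTPRC, LYZ, CD3E, CD79A, TYROBP and NKG7 were listed at 0 in both. The 8 fibroblast markers summed to 5.86 FPKM in shRON and 4.14 FPKM in shNT, with COL1A1 at 4.27 and 3.95 FPKM and COL3A1 at 1.53 and 0.0103 FPKM (log2 ratio 1.32), and the 7 endothelial markers to 7.81 and 7.51 FPKM. The part of these markers in the values below was not tested.

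All 10 lineage factors were measured. In such bulk RNA, more cells with a transcript and more transcript per cell cannot be told apart. In the shRON library 4 of them were at least 1.5-fold higher, TFAP2B, KLF5, ELF3 and EHF, where 9.95% of all measured genes were higher by that rule. None of the 10 was 1.5-fold lower, where 8.86% of all measured genes were. By a 2-fold rule 3 were higher, against 3.32% of all genes, and 0 were lower, against 2.17%. The median log2 ratio of the 10 was 0.45, and that of all measured genes was 0.04. Ratios above 0 were found for 9 of the 10 and for 53.9% of all genes. TFAP2B reached 1 FPKM only in shRON, which it could do only by being higher there. Over the other 9 the median was 0.35, with 3 higher and 0 lower.

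**Figure D1:**
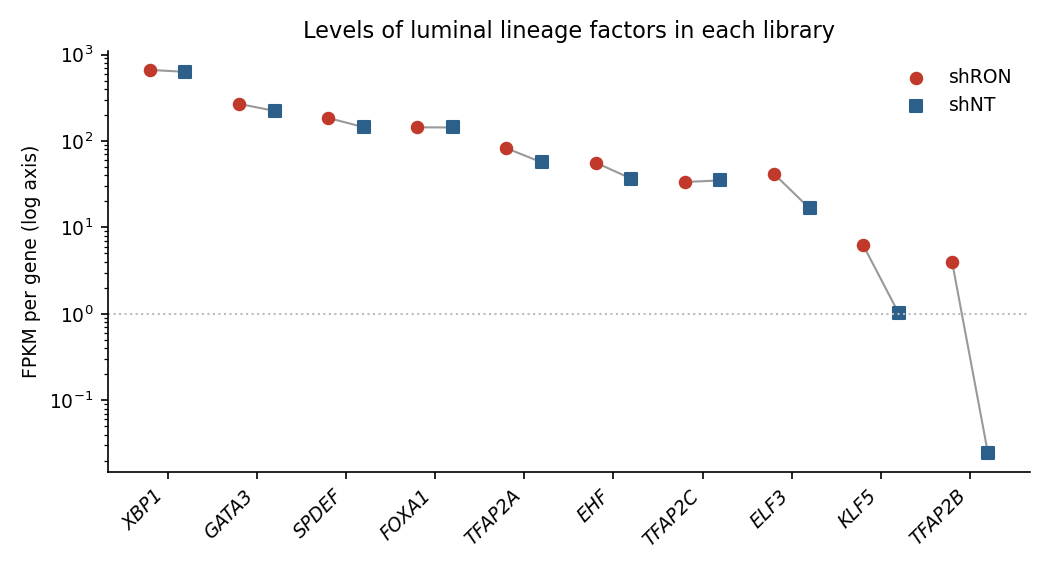
FPKM of each factor (log axis) in the shRON library (circles) and the shNT library (squares), 1 library each, ordered by level in shNT. The dotted line is 1 FPKM. The lines are close to flat for the 4 most abundant genes and steep for ELF3, KLF5 and TFAP2B.

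The 4 most abundant factors, XBP1, GATA3, SPDEF and FOXA1, were above 100 FPKM in both libraries and differed by at most 1.28-fold in FPKM between libraries. XBP1 was at 664 FPKM in shRON and 630 FPKM in shNT (log2 ratio 0.08), rank 75 and rank 88 of all measured genes by level. GATA3 was at 269 FPKM in shRON and 223 FPKM in shNT (0.27), from an estimated 11446 and 9697 fragments. SPDEF, which in intestine and airway drives goblet cell maturation, was at 185 FPKM in shRON and 144 FPKM in shNT (0.35). FOXA1 was at 144 FPKM in shRON and 143 FPKM in shNT (0.01), the smallest difference of the 10.

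For these abundant genes counting error was small, so the limit is the single culture per group. For XBP1 the ratio of FPKM was 1.05, with a 95% counting interval of about 1.03 to 1.08, and it was 1.21 for GATA3 (1.17 to 1.24), 1.28 for SPDEF (1.22 to 1.33) and 1.00 for FOXA1 (0.971 to 1.04). The intervals are exact Clopper-Pearson intervals on estimated fragments and cover counting error only. Genes within 2-fold of the same level set the scale. Among 616 genes at such a level 12.0% had a higher log2 ratio than SPDEF, among 344 genes 17.2% had a higher one than GATA3, among 140 genes 22.1% had a higher one than XBP1, and among 731 genes 38.9% had a higher one than FOXA1. The median log2 ratio of these comparison genes lay between -0.15 and -0.10.

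ELF3, an ETS factor that in several other cell types is induced by inflammatory cytokines, was at 41.7 FPKM in shRON and 16.6 FPKM in shNT. Its log2 ratio was 1.28 and its ratio of FPKM 2.51, with an approximate 95% counting interval of 2.31 to 2.73 from an estimated 1902 and 775 fragments. Only 1.22% of 3438 genes at a similar level had a higher log2 ratio. EHF, a close relative of ELF3, was at 56.2 FPKM in shRON and 36.7 FPKM in shNT, with a log2 ratio of 0.60, just past the 1.5-fold limit of the call, and a ratio of FPKM of 1.53 (1.46 to 1.61). Among 2428 genes at its level, 6.92% had a higher log2 ratio. The 3 ETS members were thus ordered SPDEF, EHF, ELF3 by level in both libraries, with differences that grew in the opposite order.

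KLF5 was at 6.28 FPKM in shRON and 1.02 FPKM in shNT, from an estimated 302 and 52 fragments. Its log2 ratio was 1.85, and its ratio of FPKM was 6.18 (95% counting interval about 4.59 to 8.46). Among 3975 genes at a similar level 0.981% had a higher log2 ratio. By level it ranked 7680 among all measured genes in shRON and 11937 in shNT.

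The 3 AP-2 genes went different ways. TFAP2B, which in mouse and human acts in facial, limb and ductus arteriosus development and is also found in mammary epithelium, was at 3.94 FPKM in shRON and 0.0248 FPKM in shNT. The shNT value rested on an estimated 2 fragments and the shRON value on 327. The ratio of FPKM of 159 therefore has a wide approximate 95% counting interval, 43.6 to 1317, and the log2 ratio on the FPKM + 1 scale was 2.27. TFAP2A was at 82.3 FPKM in shRON and 56.3 FPKM in shNT (0.54), just short of the 1.5-fold limit of the call, with a ratio of FPKM of 1.46 (1.39 to 1.53). TFAP2C, whose product regulates ESR1 and ERBB2 in breast cancer cells, was at 33.5 FPKM in shRON and 34.9 FPKM in shNT (-0.06), with a ratio of FPKM of 0.959 (0.890 to 1.03), and was the only one of the 10 with a ratio below 0, although XBP1 and FOXA1 were below 0 as well once regional medians were subtracted, and FOXA1 (-0.01) once the libraries were scaled to their median ratio. TFAP2D was listed at 0 in both libraries and TFAP2E stayed under 1 FPKM. The 5 AP-2 genes summed to 120 FPKM in shRON and 91.7 FPKM in shNT. TFAP2A made up 68.4% of that sum in shRON and 61.4% in shNT, TFAP2C 27.8% and 38.1%, and TFAP2B 3.28% and 0.0270%.

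**Figure D2:**
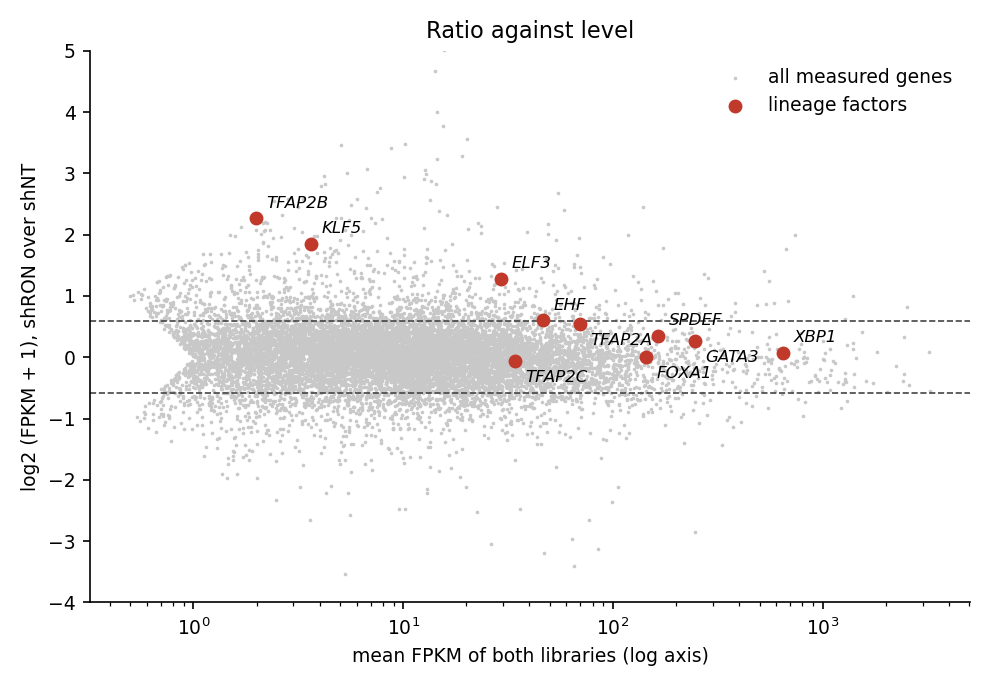
Log2 ratio of FPKM + 1 (shRON over shNT) against mean FPKM of both libraries (log axis) for all 12486 measured genes (grey) and the 10 lineage factors (red), 2 grey genes lying outside the axis. Dashed lines mark 1.5-fold. TFAP2B, KLF5, ELF3 and EHF lie above the upper line, and the 6 others lie between the lines.

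Transcript-level values could be compared for the 4 factors listed with more than 1 transcript, and all 15 transcripts of the 10 genes carried the status OK in both libraries. The shares are Cufflinks estimates from reads that the isoforms largely share, with no error given, so small shifts in share cannot be judged. The unspliced XBP1 transcript, 1820 bases long, took 92.4% of the gene's FPKM in shRON and 92.8% in shNT. The spliced transcript, 1794 bases long, took the remaining 7.64% and 7.24%, at 50.7 FPKM in shRON and 45.6 FPKM in shNT. The longer GATA3 transcript, with the 3 bases printed in capitals above, took 75.2% in shRON and 78.7% in shNT, and the shorter was at 66.7 FPKM in shRON and 47.3 FPKM in shNT.

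The 3 TFAP2A transcripts differ in their 5′ ends and so in their starts on the minus strand of chromosome 6 (hg19). The transcript that starts at 10412607 was at 34.0 FPKM in shRON and 25.9 FPKM in shNT, a ratio of 1.31. The transcript that starts at 10415470 was at 24.9 FPKM in shRON and 17.0 FPKM in shNT, a ratio of 1.46. The transcript with the outermost start, at 10419797, was at 23.4 FPKM in shRON and 13.4 FPKM in shNT, a ratio of 1.75, and its share was 28.4% in shRON and 23.8% in shNT. On the FPKM + 1 scale only this transcript passed 1.5-fold (log2 ratio 0.76, against 0.52 and 0.38). For ELF3 the 3134-base transcript took 97.4% in shRON and 97.2% in shNT, so the gene's difference was that of this transcript.

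**Figure D3:**
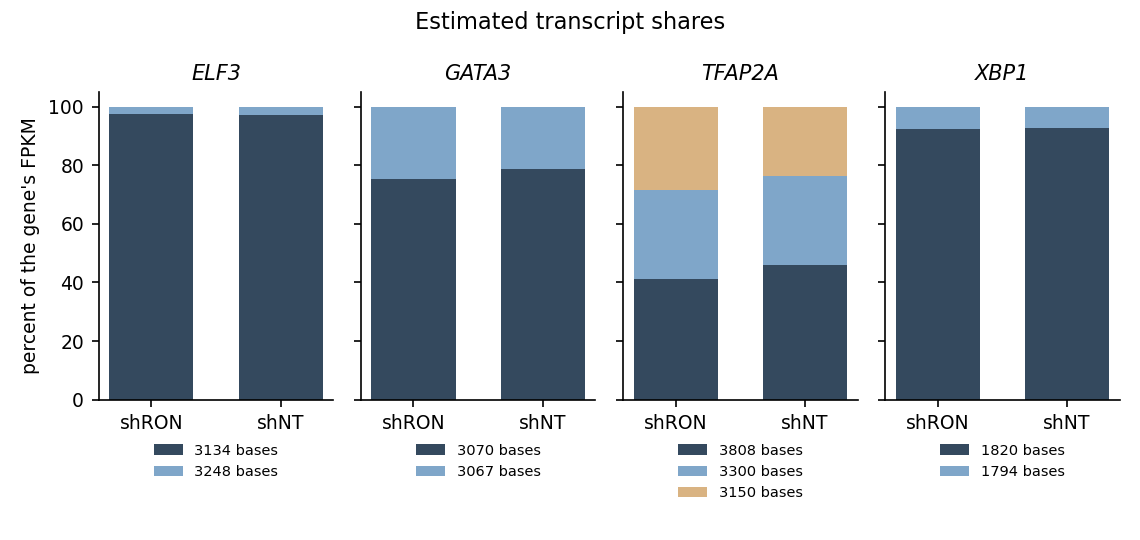
Percent of each gene's FPKM assigned to each of its transcripts (bars sum to 100%) in the shRON and shNT libraries for the 4 factors with more than 1 listed transcript, named by length in bases. The largest difference in share is in TFAP2A, where the 3808-base transcript took 41.3% in shRON and 46.0% in shNT.

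Position on the chromosome was set beside each ratio, since genes of a region can differ together. The regional value is the median log2 ratio of 20 measured genes, the nearest 10 on each side, which span 1.73 Mb around SPDEF and 27.1 Mb around KLF5. ELF3 (plus strand, chromosome 1, 201979690 to 201986316, hg19) lay in a region with a median of -0.29. Of its 20 neighbours, 0 were higher and 4 lower by 1.5-fold, and 0 had a higher ratio than ELF3. The measured gene next to ELF3, LOC100289488, 0.452 kb away, had the highest ratio of these 20 (4.43 FPKM in shRON and 3.29 FPKM in shNT, 0.34). KLF5 (plus strand, chromosome 13, 73633142 to 73651676) had a regional median of -0.04, and TFAP2B (plus strand, chromosome 6, 50786439 to 50815326) one of 0.17. For both of these, too, 0 of 20 neighbours had a higher ratio. The measured genes next to KLF5 on its 2 sides were PIBF1, 42.5 kb away, at 4.50 FPKM in shRON and 4.12 FPKM in shNT, and TBC1D4, 2207 kb away, at 4.19 and 2.89 FPKM, neither past 1.5-fold on the FPKM + 1 scale.

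EHF (plus strand, chromosome 11, 34642588 to 34684835) stood apart from these 3. Its regional median was 0.29, and 6 of its 20 neighbours were higher by 1.5-fold and 0 lower. With the regional median subtracted EHF was at 0.31, short of 1.5-fold. Its nearest measured neighbour, 107 kb away, is ELF5, the ETS factor that drives the secretory alveolar lineage of the mouse mammary gland, which was at 178 FPKM in shRON and 106 FPKM in shNT (log2 ratio 0.74).

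The other factors lay in regions with medians between 0.02 and 0.27. GATA3 (plus strand, chromosome 10, 8096667 to 8117164, regional median 0.23), SPDEF (minus strand, chromosome 6, 34505580 to 34524091, 0.27) and TFAP2A (minus strand, chromosome 6, 10396916 to 10419797, 0.19) were at 0.04, 0.09 and 0.35 after subtraction. XBP1 (minus strand, chromosome 22, 29190548 to 29196560, 0.17) and FOXA1 (minus strand, chromosome 14, 38059189 to 38064489, 0.20) were below their regions, at -0.09 and -0.19 after subtraction, and TFAP2C (plus strand, chromosome 20, 55204358 to 55214339, 0.02) was at -0.08. CCDC117, 5.27 kb from XBP1, was at 48.8 FPKM in shRON and 22.4 FPKM in shNT, although XBP1 itself differed little. FLJ45983, 1.22 kb from GATA3, was at 30.2 FPKM in shRON and 40.2 FPKM in shNT, against the direction of GATA3. TFAP2A overlaps LOC100130275 (1.91 and 1.33 FPKM), and the sources used here do not say whether strand was kept, so reads of this pair may be mixed.

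**Figure D4:**
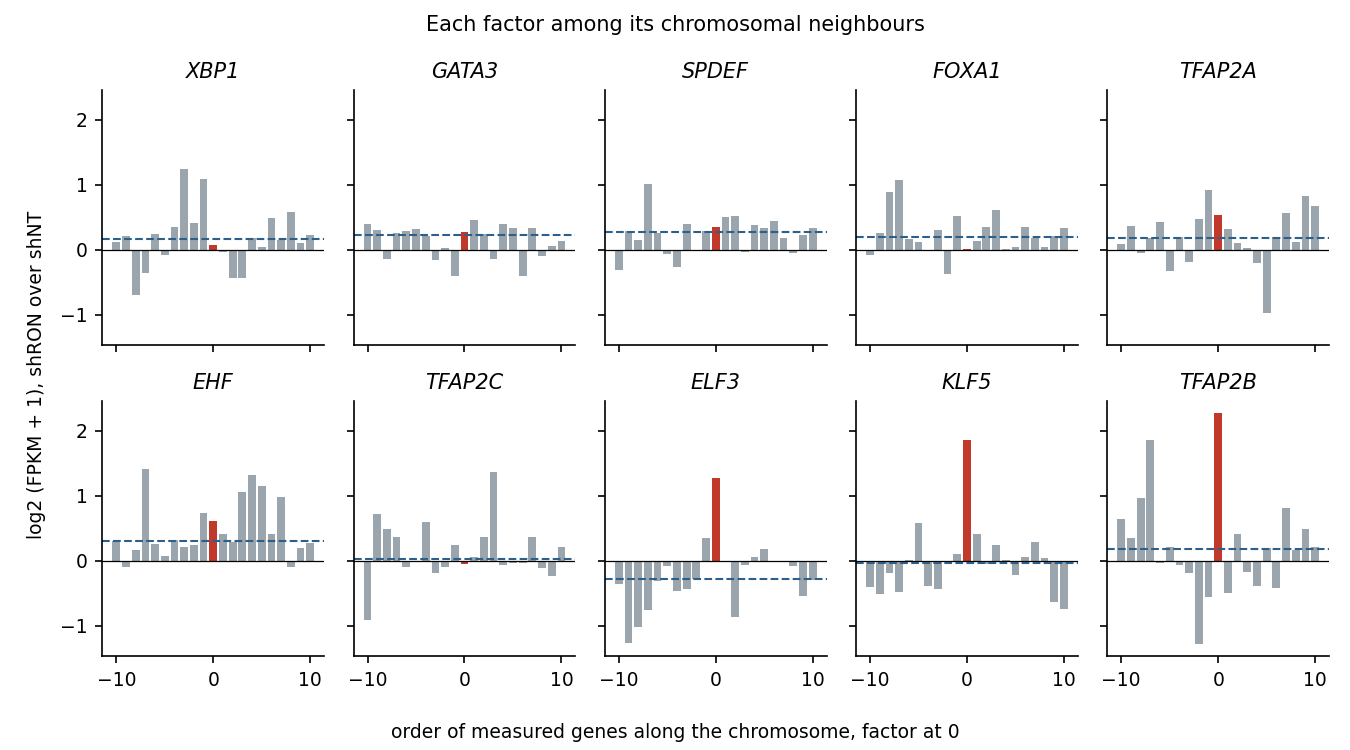
Log2 ratio of FPKM + 1 (shRON over shNT) of each factor (red, position 0) and of the 10 nearest measured genes on each side (grey) in chromosomal order, with the median of the 20 neighbours as a dashed line. TFAP2B, KLF5 and ELF3 stand above all 20 of their neighbours, while EHF lies among several that were higher.

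The families were then read as a whole, from lists chosen with earlier results of these data known. Of the 28 ETS genes, 16 were measured, 6 were higher by 1.5-fold and 0 lower, with a median log2 ratio of 0.39, against 9.95% higher, 8.86% lower and a median of 0.04 over all genes. These counts include SPDEF, EHF and ELF3. Of the 13 other measured ETS genes, 4 were higher and 0 lower, against the same shares of all genes, with a median of 0.29. With 5 added to each FPKM value in place of 1, 3 of the 16 were higher, against 4.15% of all genes. Besides ELF3, EHF and ELF5, the higher ones were ETV7 (14.8 FPKM in shRON and 4.28 FPKM in shNT, 1.58), ETV6, which encodes a transcriptional repressor (4.17 and 1.34 FPKM, 1.14), and ELK3 (2.58 and 1.19 FPKM, 0.71). The ubiquitous ETS genes GABPA (12.6 and 10.1 FPKM), ELF1 (10.8 and 9.90 FPKM) and ELK1 (24.0 and 25.5 FPKM) were not past the rule. Nor was ELF4, which had the lowest ratio of the 16 (3.71 and 5.34 FPKM, -0.43). ELF3 ranked 4 of the 28 by level in shRON and 6 in shNT. Epithelial factors dominated the family's transcripts: SPDEF took 32.1% of the summed ETS FPKM in shRON and 36.2% in shNT, and ELF5 took 30.9% and 26.6%. The whole family summed to 575 FPKM in shRON and 399 FPKM in shNT.

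Of the 17 KLF genes, 11 were measured, with a median of 0.44. By 1.5-fold 4 were higher and 0 lower, against 9.95% and 8.86% of all genes. Of the 10 without KLF5, 3 were higher and 0 lower, against the same shares of all genes, with a median of 0.43. KLF5 had the highest ratio, followed by KLF4, which in intestinal epithelium opposes the proliferative action of KLF5 (18.0 FPKM in shRON and 8.17 FPKM in shNT, 1.05), KLF3 (9.09 and 4.10 FPKM, 0.98) and KLF6 (19.1 and 11.0 FPKM, 0.75). KLF5 ranked 7 of the 17 by level in shRON and 11 in shNT, so it stayed a minor member, with 6.50% and 1.62% of the family's summed FPKM. KLF16, the most abundant KLF gene in shNT, was at 7.84 FPKM in shRON and 11.3 FPKM in shNT (-0.47). KLF9 was at 0.666 FPKM in shRON and 1.46 FPKM in shNT (-0.56), just short of the lower limit of the call.

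GATA3 and FOXA1 stood nearly alone in their families. GATA3 took 96.8% of the summed GATA FPKM in shRON and 95.7% in shNT. Of the 3 other measured GATA genes, GATA6 was higher (5.75 FPKM in shRON and 2.90 FPKM in shNT, 0.79) and GATA2 (1.80 and 4.40 FPKM, -0.95) and GATA5 (1.35 and 2.59 FPKM, -0.61) were lower. FOXA2 was listed at 0 in both libraries and FOXA3 in shRON, so FOXA1 carried the forkhead A signal.

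**Figure D5:**
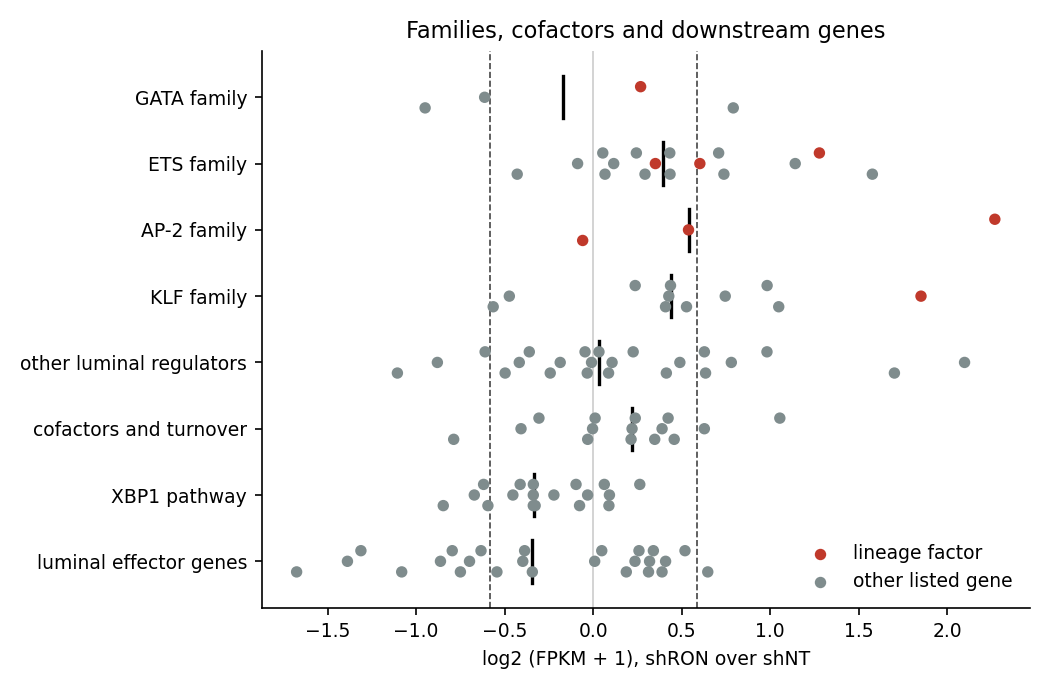
Log2 ratio of FPKM + 1 (shRON over shNT) of the measured genes of each list, with lineage factors in red, other genes in grey, black bars at list medians and dashed lines at 1.5-fold. The ETS and KLF families have medians of 0.39 and 0.44, and the XBP1 pathway and luminal effector lists medians of -0.33 and -0.34.

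Other regulators of the luminal lineage were split. Of 23 measured, 6 were higher and 3 lower, against 9.95% and 8.86% of all genes, with a median of 0.03 beside 0.04 over all genes (-0.14 with regional medians subtracted). LMO4, a LIM-only adaptor that is part of mammary transcription complexes, was at 33.6 FPKM in shRON and 7.07 FPKM in shNT (log2 ratio 2.10). STAT5A, the prolactin-activated factor of alveolar cells, was at 7.97 and 1.76 FPKM (1.70), NFIB at 28.6 and 14.0 FPKM (0.98) and RUNX1 at 12.4 and 6.80 FPKM (0.78). The hormone receptor genes PGR (35.1 FPKM in shRON and 76.7 FPKM in shNT, -1.11) and ESR1 (log2 ratio -0.61) were lower, as was CBFB, which encodes the partner subunit of RUNX proteins (4.80 and 9.68 FPKM, -0.88). FOXA1 (0.01) and GATA3 (0.27), whose products share many binding sites with the estrogen receptor, had ratios nearer 0 than ESR1.

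Regulators of basal and mesenchymal identity were mostly not detected at a measurable level. Of 14 listed, 3 were measured. SOX9 (78.6 FPKM in shRON and 26.9 FPKM in shNT, 1.51) and TWIST1 (11.0 and 1.88 FPKM, 2.06) were higher, where 9.95% of all measured genes were. FOXC1 (1.65 and 0.885 FPKM, 0.49) was not past the rule and reached 1 FPKM only in shRON. TP63, the basal lineage factor, was at 0.698 FPKM in shRON and 0.125 FPKM in shNT, and SNAI1, SNAI2, ZEB1 and ZEB2 stayed under 1 FPKM in both.

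Cofactors of the lineage factors and genes of their protein turnover had a median of 0.22, with 2 of 15 measured higher (13.3%) and 1 lower (6.67%), shares near those of all genes (9.95% and 8.86%). CITED2, a coactivator of AP-2 proteins, was the most abundant of them, at 277 FPKM in shRON and 133 FPKM in shNT (1.05), in a region with a median of 0.25. The GATA cofactor genes ZFPM1 (1.29 and 2.95 FPKM, -0.79) and ZFPM2 (2.27 and 1.11 FPKM, 0.63) went opposite ways at low levels. WWP1, which encodes a ubiquitin ligase that targets KLF5 protein, was at 15.0 FPKM in both libraries.

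Genes that carry out luminal functions were more often lower than higher by the rule. Of 25 luminal effector genes, 1 was higher and 9 were lower by 1.5-fold, against 9.95% higher and 8.86% lower of all genes. Ratios were above 0 for 12 and below 0 for 13, with a median of -0.34. With the trend of ratio on level removed, 1 was higher and 6 were lower (9.60% of all genes lower), with a median of -0.16. With regional medians subtracted, 0 were higher and 7 lower (6.61% of all genes lower), with a median of -0.07. AGR3 (15.8 FPKM in shRON and 52.8 FPKM in shNT, -1.67), SCUBE2 (2.35 and 7.76 FPKM, -1.39), the carbonic anhydrase gene CA12 (66.0 and 165 FPKM, -1.31) and ANXA9 (20.7 and 44.8 FPKM, -1.08) had the lowest ratios. AGR2, a disulfide isomerase gene that SPDEF activates in goblet cells, was at 322 and 543 FPKM (-0.75). SPDEF had a log2 ratio of 0.35, and its part in the AGR2 value was not tested. MLPH was the 1 that was higher (65.1 and 41.2 FPKM, 0.65). Several of these genes are also estrogen targets, and ESR1 was lower in the same library. Genes of the list did not all go that way. TFF1 (4.80 FPKM in shRON and 3.05 FPKM in shNT, 0.52), RET (0.24) and SLC39A6 (0.19) had ratios above 0, none past the rule. The part of ESR1 in these values was not tested.

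The XBP1 pathway list held sensors and targets of the unfolded protein response, and 18 of its 19 genes were measured. Of these, 0 were higher and 4 lower (22.2%), against 9.95% and 8.86% of all genes, with a median of -0.33. XBP1 had a log2 ratio of 0.08 and its spliced transcript one of 0.15, and their part in these values was not tested. Only 1 of the 18 was lower with the trend on level removed or with regional medians subtracted (medians -0.25 and -0.24). By those settings 9.60% and 6.61% of all genes were lower. The 4 lower by the main rule were the chaperone genes DNAJC3 (9.92 FPKM in shRON and 18.6 FPKM in shNT, -0.85) and DNAJB11 (63.0 and 101 FPKM, -0.67), SEC61B of the translocon (54.9 and 84.8 FPKM, -0.62) and SRPRB of the signal recognition particle receptor (22.0 and 33.6 FPKM, -0.59). DNAJC3, SEC61B and SRPRB lie in regions with medians of -0.42, -0.44 and -0.39, and DNAJB11 in one of -0.02. DNAJB9, a sensitive target of spliced XBP1 in mouse and human cells, was at 15.7 and 12.9 FPKM (0.26), and ERN1 was at 1.82 and 1.70 FPKM (0.06).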

How the data were processed

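Per the file headers, the authors deposited Cufflinks transcript tables with 1 FPKM value and 1 coverage value for each of 37839 RefSeq transcripts, and the build is hg19 per the submitters' processing notes, which also name DESeq without a role. The sources used here name neither the aligner nor the Cufflinks version. The deposited FPKM values are divided by transcript length and library fragments, and the deposited coverage is mean read depth per base. From these, values were summed per gene, and genes with microRNA, snoRNA and similar name prefixes were left out, although at least RN7SK was kept. Coverage times length, divided by 241 bases per read pair in shRON and 244 in shNT (medians of single-pair products between 150 and 325 bases, which partly fix them), gave estimated fragments. Genes and lists were chosen with earlier results of these data known, as was the rule for named genes, namely all 10 factors, measured family members, nearest measured neighbours, and up to 4 genes past 1.5-fold per other list. The rule was not followed in full, since several measured ETS and KLF genes and several nearest neighbours are not named above. Genes named outside the rule (such as AGR2, ESR1, RUNX1, MLPH, TFF1, WWP1, TP63 and DNAJB9) were picked after their values were seen. A 1.5-fold rule of size replaced a test. Sequences came from RefSeq (promoters, GRCh38.p14) and GRCh37 (isoform sites). The size rule was tested on simulated data that held counting error only. That simulation held no difference between cultures and no planted fold near 1.5, so it is no check on calls close to the limit. Alternatives varied the pseudocount, filter, transcript summing, scaling, regional level and fold. Software was Python 3.11.15, pandas 2.3.3, SciPy 1.17.1 and statsmodels 0.14.6.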

Additional observations from a re-analysis of the deposited data

How the results depend on the processing

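Between 3 and 5 of the factors were 1.5-fold higher, and 0 lower, under all 8 alternatives to the filter, pseudocount, summing and scaling. By a 2-fold rule 3 were higher, against 3.32% of all genes. The share of all genes 1.5-fold higher ran from 4.15% (pseudocount 5) to 13.5% (pseudocount 0.1). The share lower ran from 3.73% to 11.8% in the same settings. The median log2 ratio of the factors, 0.45 as reported, was 0.55 with the trend on level removed and 0.20 with regional medians subtracted. ELF3 (1.11 to 1.57) and KLF5 (0.91 to 2.52) stayed past 1.5-fold in all 8 alternatives and TFAP2B (0.83 to 5.02) in the 7 that kept it. Pseudocounts of 5 and 0.1 gave the ends for KLF5 and TFAP2B. A change of filter cannot alter a gene's own ratio, and the choice of transcript cannot for KLF5 and TFAP2B, each listed with 1 transcript. Those settings are thus no check on these ratios. KLF5 met the filter of 5 FPKM only in shRON (6.28 FPKM, against 1.02 FPKM in shNT). EHF fell short of 1.5-fold with a pseudocount of 5 and with its region subtracted (0.31), and TFAP2A passed it with the trend removed (0.62). XBP1 (-0.09 to 0.26) and FOXA1 (-0.19 to 0.13) changed sign with the region subtracted, and FOXA1 also with median scaling (-0.01). Medians of the ETS (0.23 to 0.44) and KLF (0.30 to 0.64) families stayed above 0 in all 8. Of the KLF genes 1 was lower in 3 of them, and 1 ETS gene was lower when only the most abundant transcript was used. The GATA median of -0.17 was 0.53 over the 2 genes at 5 FPKM or more in a library. GATA6 (5.75 FPKM in shRON and 2.90 FPKM in shNT) passed that filter only through shRON, which it could do only by being higher there. The KLF value of 0.64 came from the same filter, which KLF3, KLF5 and KLF11 also passed only through shRON. Dividing by the median ratio of well-expressed genes shifted ratios by 0.01. The cause of these shifts was not tested. With 1 library per group no library could be left out. No paired analysis was possible because each group has 1 library and the result comes from no test. Depth limits TFAP2B in shNT, at an estimated 2 fragments.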
